A study of Oryctolagus cuniculus with 34 samples.

Results

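The genes described here are 64 nuclear-encoded genes of the mitochondrion, taken from RNA sequencing of rabbit supraspinatus muscle after rotator cuff repair. They comprise 27 mitochondrial ribosomal proteins, 21 genes of the respiratory chain, ATP synthase and coenzyme Q synthesis, 8 of protein import, 6 carriers of the inner membrane and 2 mitochondrial translation factors. A gene is a member when its human ortholog symbol begins with MRPL, MRPS, NDUF, COX and a digit, UQCR, ATP5, SDH, TIMM, TOMM, SLC25A, COQ, MTIF, MTRF, MTERF, TFAM or TFB. It also had to exceed a CPM (counts scaled to library size) of 1 in at least 1 library, which all 64 matching genes did, out of 12937 tested genes and 23669 in the count table. Symbols were at hand for 3349 of the tested genes, so many other genes of these families could not be recognised. The animals were female New Zealand White rabbits of about 6 months whose left supraspinatus tendon was cut (tenotomy) and, after 8 weeks, reattached to the humeral head. Muscle of the left shoulder and of the right shoulder, the control, was taken 1 week (4 rabbits), 2 weeks (5), 4 weeks (4) or 8 weeks (4) post-repair. The control was not operated on according to the methods of the study, while the sample labels call it a sham with a skin incision. Messenger RNA came from the posterior lateral region of the muscle, 34 libraries from 17 rabbits in all, and every repaired shoulder had been through both the tenotomy and the repair.

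Muscle fibres are rich in mitochondria, which make ATP from fuel and oxygen. Electrons from NADH and succinate enter the respiratory chain at complexes I and II, travel by coenzyme Q to complex III and on to complex IV, which passes them to oxygen, and the proton gradient that builds up drives ATP synthase. A few core subunits of the chain are encoded in mitochondrial DNA and made on the mitochondrion's own ribosome, while the other subunits, all the ribosomal proteins and the carriers are encoded in the nucleus and imported through the TOM and TIM complexes. Carriers of the SLC25 family exchange metabolites, nucleotides and cofactors across the inner membrane.

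Total counts on genes ran from 9220035 to 28395188 in the 33 libraries used, with a median of 19343431 in the 15 libraries whose titles belong to 1 and 8 weeks and 10625163 in the 18 of 2 and 4 weeks. The repair library of rabbit 3 at 8 weeks was left out, and its values are given at the end. According to the methods of the study, the experimental sample of an animal at 8 weeks was filtered out at read quality control, and the animal is not named. Of the 64 members, 59 exceeded a CPM of 1 in all 33 libraries, and the exceptions were MRPL32, NDUFAF7, SLC25A27, TIMM8A and TIMM29. The symbols of 39 members come from a table in the order of gene identifiers, whereas those of the other 25 come from the head of a table sorted by co-expression module, 24 of them from module 1, which the study built from these same repair libraries. The way these 25 vary together across repair libraries is therefore partly fixed by their choice. In bulk tissue, fewer mitochondria-rich cells and less RNA per cell cannot be told apart.

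At 1 week post-repair, 21 of the 64 members fell and 1 rose. The test was limma-voom with Benjamini-Hochberg adjustment over all genes, called at an adjusted p under 0.05, and log2FC always compares repair with control. Over all genes tested, 6.88% were called lower and 6.81% higher at this time. At 2 weeks, 23 members fell and 0 rose, against 7.92% lower and 7.95% higher over all genes. For rises at 2 weeks, 0 members had an unadjusted p under 0.05, and edgeR and DESeq2 also called 0. With the rabbit as a block 32 and 42 members fell at 1 and 2 weeks, against 1493 and 1608 of all 12937 genes. With 1 library left out the member counts ranged from 4 to 36 and from 4 to 44. They were lowest when the control of rabbit 5 or 7 (1 week) or the repaired shoulder of rabbit 59 (2 weeks) was dropped. Calls over all genes then dropped too, to 311 of 12932, 326 of 12937 and 177 of 12514 lower, respectively. The median log2FC over the members was -0.47 at 1 week and -0.49 at 2 weeks, which corresponds to 0.721 and 0.711 times the control level, against 0.05 and 0.06 over all genes.

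Direction was shared more widely than the calls. The log2FC lay below 0 for 58 members at 1 week and 61 at 2 weeks, against 46.3% and 46% of all genes. At 1 week, 37 members had every repair library below every control library, against 13.3% of all genes, and 1 had every one above, against 16.1%. At 2 weeks 5 lay wholly below, against 3.73%, and 0 wholly above, against 4.1%. Members with symbols from the identifier table gave 13 of 39 lower at 1 week and 12 of 39 at 2 weeks, with medians of -0.48 and -0.45. Of all tested genes of that table, 8% and 9.05% were called lower, with medians of 0.008 and 0.021. Members from the module table alone gave 8 of 25 and 11 of 25, with medians of -0.44 and -0.53. Of all tested genes found in that table alone, 3.97% and 7.19% were called lower, with medians of 0.23 and 0.41. Between the time points, 12 members fell at both, 9 were called at 1 week alone and 11 at 2 weeks alone, and no test was made of whether these sets differ.

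**Figure D1:**
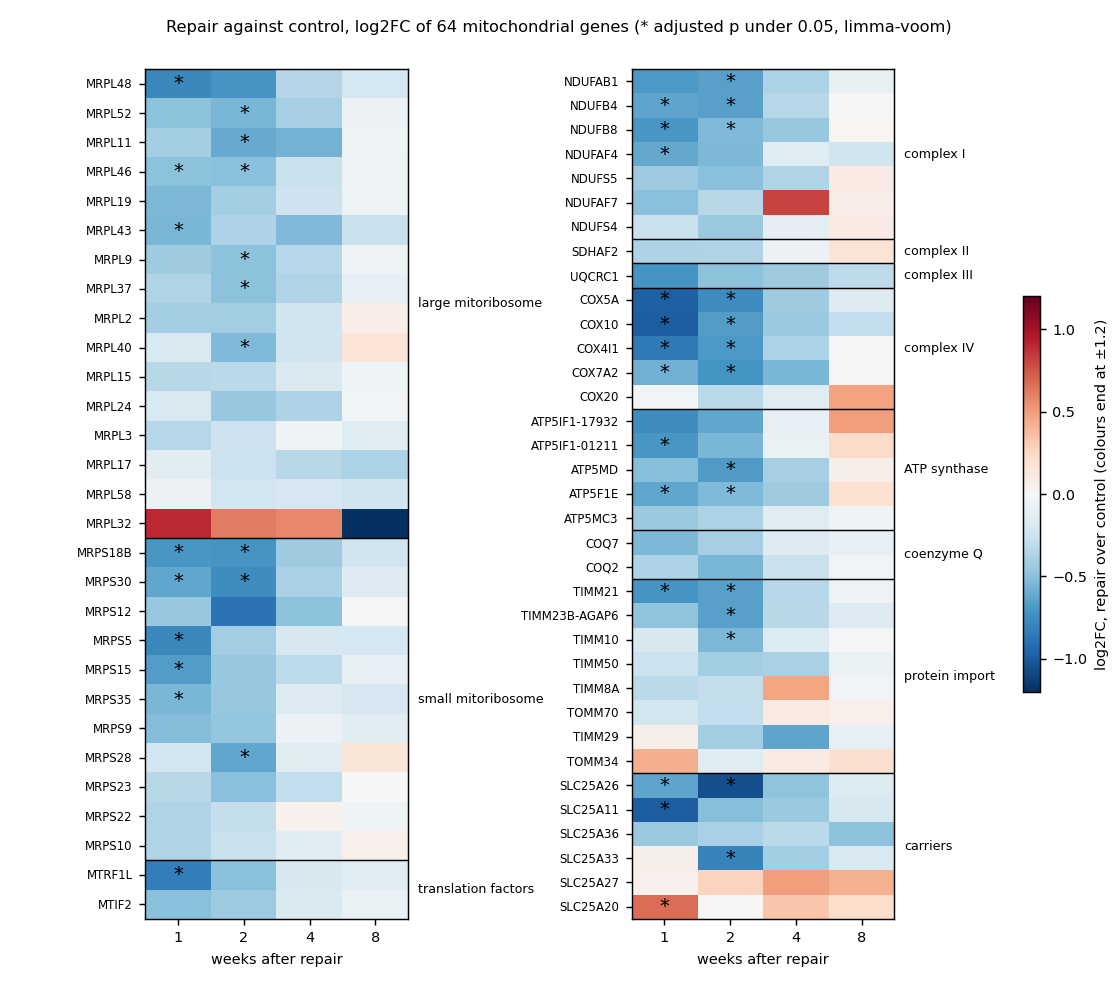
Heat map of the log2FC of repair over control for each of the 64 members (rows, grouped by role) at 1, 2, 4 and 8 weeks post-repair (columns). Blue is lower and red higher after repair, and asterisks mark an adjusted p under 0.05 in limma-voom. All 44 asterisks of lower members lie in the columns of 1 and 2 weeks, the 1 on a red field is SLC25A20, and the columns pale towards 8 weeks. The strong colours of MRPL32, NDUFAF7, SLC25A27 and TIMM8A belong to genes near the detection limit.

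Complex IV, cytochrome c oxidase, had the lowest median log2FC of the 11 roles at 1 week (-0.85) and 2 weeks (-0.69), with 4 of its 5 members called at both. COX10 acts in the synthesis of heme A, the cofactor of the oxidase. Its level at 1 week was 21.8, 13.8, 21.9 and 20.8 CPM in the repaired shoulders of rabbits 5, 6, 7 and 8 and 47.8, 33.6, 45.3 and 29.7 CPM in their controls. Every repair library lay below every control library. The log2FC was -0.99 (SE 0.190, 95% confidence interval -1.38 to -0.60, adjusted p = 0.0028 in limma-voom), and the call held with any library of that week left out. At 2 weeks COX10 reached 12.8, 26.6, 21.5, 21.3 and 22.5 CPM after repair in rabbits 59, 60, 61, 62 and 64 and 38.8, 34.7, 27.4, 33.1 and 27.8 CPM in controls. The groups again did not overlap, and the log2FC was -0.67 (SE 0.177, adjusted p = 0.018 in limma-voom).

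COX4I1, a nuclear-encoded subunit of the oxidase, measured 439.9, 370.2, 354 and 513 CPM after repair at 1 week against 809.7, 723, 653 and 809 CPM in the controls of rabbits 5, 6, 7 and 8. The ranges were well apart, with means of 419 ± 72.85 and 749 ± 75.8 CPM (SD, n = 4). Its log2FC was -0.85 at 1 week (SE 0.225, adjusted p = 0.017) and -0.69 at 2 weeks (SE 0.192, adjusted p = 0.022), both in limma-voom. COX5A, another subunit, fell from 343 ± 45.2 to 174 ± 34.9 CPM at 1 week (SD, n = 4 each, log2FC -0.98, adjusted p = 0.019 in limma-voom) and had a log2FC of -0.75 at 2 weeks (adjusted p = 0.025). COX7A2, a small subunit, fell by 0.57 and 0.71 on the log2 scale at 1 and 2 weeks (adjusted p = 0.029 and 0.0095 in limma-voom). Only COX20, an assembly factor, was not called, with a log2FC of -0.03 and -0.33. The call of COX10 at 2 weeks was lost without the repair library of rabbit 59 (adjusted p = 0.0883), and that of COX4I1 at 1 week without the control of rabbit 5 or the repair library of rabbit 7 (at most 0.0573).

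Of the 7 members of complex I, which takes electrons from NADH, 3 were called lower at each of 1 and 2 weeks, and the fitted log2FC of all 7 was negative. For NDUFAF7 at 2 weeks no direction can be read, since it was at 0 CPM in both shoulders of 3 of 5 rabbits, its mean was 1.31 CPM after repair and 0.980 CPM in controls, and the SE of its log2FC of -0.33 was 1.816. NDUFB8, an accessory subunit of the membrane arm, measured 133, 100, 103 and 131 CPM in the repaired shoulders of rabbits 5, 6, 7 and 8 at 1 week and 207, 180.6, 182.5 and 187 CPM in their controls. The highest repair library stayed below the lowest control. Its log2FC was -0.70 at 1 week (SE 0.216, adjusted p = 0.033) and -0.53 at 2 weeks (SE 0.180, adjusted p = 0.045, limma-voom). NDUFB4, a neighbouring accessory subunit, fell by 0.63 and 0.66 on the log2 scale. The assembly factor NDUFAF4 fell at 1 week (3.08 ± 0.419 against 4.75 ± 0.789 CPM, SD, n = 4, log2FC -0.62, adjusted p = 0.025 in limma-voom). NDUFAB1, the mitochondrial acyl carrier protein that is also a subunit of complex I, fell at 2 weeks with a log2FC of -0.65 (adjusted p = 0.039 in limma-voom). NDUFS4 and NDUFS5, subunits, and NDUFAF7, a methyltransferase of complex I assembly, were not called.

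Complexes II and III each had 1 member, and neither was called. SDHAF2, which helps attach FAD to succinate dehydrogenase, lay at 40.5, 37.1, 32.3 and 37.7 CPM after repair at 1 week and 50.6, 44.4, 49.2 and 46.8 CPM in the controls. The groups were apart, yet the log2FC of -0.37 had an adjusted p of 0.095 in limma-voom. UQCRC1, a core protein of complex III, lay at 380.0, 229, 285 and 366 CPM after repair and 655, 420.1, 481 and 498 CPM in controls at 1 week. Here too the libraries did not overlap, and the log2FC was -0.71 (SE 0.254, adjusted p = 0.0575 in limma-voom, 0.0466 in edgeR). With the rabbit as a block, UQCRC1 passed at 1 and 2 weeks (adjusted p = 0.0215 and 0.0241) and SDHAF2 at 2 weeks (0.037).

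All 5 ATP synthase members had negative log2FC early on. ATP5F1E, the epsilon subunit of the catalytic part, fell at 1 week (log2FC -0.63, SE 0.204, adjusted p = 0.041) and 2 weeks (-0.53, SE 0.173, adjusted p = 0.039, limma-voom). ATP5MC3, one of the genes for the rotor ring, measured 381, 229, 261 and 279.6 CPM after repair at 1 week against 512, 302, 369 and 382 CPM in controls. Each rabbit was lower on the repaired side but the groups overlapped, and the log2FC of -0.44 was not called (adjusted p = 0.14 in limma-voom). ATP5MD, a small membrane subunit, fell at 2 weeks (log2FC -0.68, adjusted p = 0.030 in limma-voom). ATP5IF1, the inhibitor of ATP synthase, is the human symbol of 2 rabbit genes whose reads may be shared, so their split is uncertain. ENSOCUG00000001211 had a log2FC of -0.70 at 1 week (adjusted p = 0.0491 in limma-voom, 0.0502 in edgeR) and ENSOCUG00000017932 -0.74 (adjusted p = 0.0606 in limma-voom). At 8 weeks their log2FC was 0.23 and 0.50, neither called.

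The enzymes COQ2 and COQ7, which attach the isoprenoid tail and hydroxylate the ring in coenzyme Q synthesis, were not called at any single time. COQ7 measured 19.3, 11.6, 16.1 and 19.8 CPM after repair and 31.4, 16.4, 23.3 and 26.5 CPM in controls at 1 week. Each rabbit was lower on the repaired side, and the log2FC was -0.54 (adjusted p = 0.080 in limma-voom, 0.020 with the rabbit as a block). COQ2 had a log2FC of -0.37 at 1 week and -0.55 at 2 weeks (adjusted p = 0.33 and 0.11 in limma-voom, 0.024 and 0.0049 with the block), with the repair library of rabbit 59 at 7.17 CPM and the other 4 of 2 weeks between 15.55 and 25.56 CPM, beside 13.7 CPM in the control of rabbit 59.

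All 11 members with an MRPS symbol, the series named for the small mitoribosomal subunit, had negative log2FC at 1 and at 2 weeks, with 5 and 3 of them called. MRPS18B was the 1 member called at both weeks with each library of the week left out in turn. Its level was 14.01, 16.71, 14.98 and 16.53 CPM after repair at 1 week and 29.4, 23.5, 25.2 and 23.1 CPM in the controls of rabbits 5, 6, 7 and 8. At 2 weeks it was 14.5, 27.3, 23.5, 19.7 and 19.6 CPM after repair in rabbits 59, 60, 61, 62 and 64 and 33.45, 34.4, 30.8, 36.05 and 31.3 CPM in controls. Neither week had any overlap. The log2FC was -0.70 (SE 0.159, adjusted p = 0.0075) and -0.71 (SE 0.147, adjusted p = 0.0073, limma-voom).

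MRPS30, which later structures place in the large subunit despite its name, fell by 0.62 on the log2 scale at 1 week (adjusted p = 0.023) and 0.75 at 2 weeks (adjusted p = 0.0095, limma-voom). At 2 weeks it measured 7.93, 17.2, 19.7, 15.1 and 14.9 CPM after repair and 23.8, 23.6, 23.2, 27.1 and 20.7 CPM in controls, with no overlap. MRPS5 measured 25.05, 32.4, 25.01 and 29.85 CPM after repair at 1 week against 53.5, 40.5, 51.4 and 46.98 CPM in controls. Its log2FC was -0.78 (SE 0.182, adjusted p = 0.0087 in limma-voom), and at 2 weeks it was -0.42 and not called (adjusted p = 0.069). MRPS9 had a log2FC of -0.52 and -0.47 at the early times (adjusted p = 0.12 and 0.11 in limma-voom). MRPS12, which lies near the decoding site, had the largest negative value of the group at 2 weeks, -0.88, but an SE of 0.408 and an adjusted p of 0.12 in limma-voom. Its repair libraries of that week spread from 1.14 CPM in rabbit 59 to 8.85 CPM in rabbit 61.

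Of the 16 members with an MRPL symbol, the large mitoribosomal subunit, 3 fell at 1 week (MRPL43, MRPL46 and MRPL48) and 6 at 2 weeks (MRPL9, MRPL11, MRPL37, MRPL40, MRPL46 and MRPL52). Negative log2FC were seen in 15 of 16 at both times. MRPL11, which sits at the stalk where translation factors bind, measured 12.4, 35.0, 25.2, 21.4 and 26.6 CPM after repair at 2 weeks in rabbits 59, 60, 61, 62 and 64 against 29.8, 33.75, 36.9, 32.9 and 38.01 CPM in controls. The repaired shoulder was lower in 4 of 5 rabbits and rabbit 60 went the other way by a small margin. The log2FC was -0.60 (SE 0.166, adjusted p = 0.021 in limma-voom). MRPL37 fell at 2 weeks from 96.4 ± 7.90 to 70.3 ± 19.9 CPM (SD, n = 5, log2FC -0.49, adjusted p = 0.032 in limma-voom). MRPL48 had the lowest log2FC of the group at 1 week, -0.77 (adjusted p = 0.044 in limma-voom). The 1 member with a positive value, MRPL32, exceeded a CPM of 1 in 11 of 33 libraries, lay between 0 and 3.11 CPM, and had SEs of 1.774 and 1.615 around log2FC of 0.90 and 0.63, so no direction can be read.

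Both translation factors had negative log2FC. MTRF1L, a mitochondrial release factor, measured 2.645, 3.46, 3.07 and 3.30 CPM after repair at 1 week against 5.27, 4.49, 6.43 and 6.14 CPM in controls. The groups did not overlap, and the log2FC was -0.83 (SE 0.215, adjusted p = 0.015 in limma-voom). The call was lost only without the control of rabbit 7 (adjusted p = 0.0683). MTIF2, the initiation factor, had a log2FC of -0.50 at 1 week and -0.43 at 2 weeks (adjusted p = 0.10 and 0.11 in limma-voom, 0.028 and 0.045 with the rabbit as a block).

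Among the 8 genes of protein import, 1 fell at 1 week and 3 at 2 weeks. TIMM21, a subunit of the TIM23 translocase of the inner membrane, measured 20.2, 16.8, 17.7 and 19.1 CPM after repair at 1 week and 33.5, 24.95, 33.4 and 29.8 CPM in controls. The libraries were fully apart, with a log2FC of -0.71 (SE 0.184, adjusted p = 0.015), followed by -0.65 at 2 weeks (SE 0.168, adjusted p = 0.017, limma-voom). The gene carrying the human readthrough symbol TIMM23B-AGAP6, related to the channel of that translocase, fell at 2 weeks (57.9 ± 5.49 to 38.7 ± 12.25 CPM, SD, n = 5, log2FC -0.65, adjusted p = 0.016 in limma-voom). TIMM10, a chaperone of the intermembrane space, fell at 2 weeks with a log2FC of -0.54 (adjusted p = 0.022 in limma-voom) and no overlap between the groups. TOMM70, a receptor of the outer membrane, had a log2FC of -0.22 at 1 week and -0.29 at 2 weeks (adjusted p = 0.48 and 0.24 in limma-voom). TOMM34, a cytosolic co-chaperone for precursors, measured 24.4, 11.25, 14.8 and 14.3 CPM after repair at 1 week and 11.8, 12.03, 10.8 and 11 CPM in controls. It was higher in 3 of 4 rabbits, most in rabbit 5, and its log2FC of 0.44 was not called (adjusted p = 0.082 in limma-voom).

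Of the 6 carriers, 3 had negative log2FC at 1 week and 4 at 2 weeks. SLC25A26 brings S-adenosylmethionine, the methyl donor, into the matrix. At 2 weeks it measured 3.36, 9.40, 8.36, 6.995 and 8.63 CPM after repair in rabbits 59, 60, 61, 62 and 64 and 12.4, 16.6, 10.6, 15.3 and 15.5 CPM in controls. The repair libraries all lay below the lowest control. Its log2FC was -1.05 (SE 0.186, 95% confidence interval -1.43 to -0.67, adjusted p = 0.0036 in limma-voom), the only call among the members past a log2FC of 1 in either direction, and without the repair library of rabbit 59 it was -0.75 and still called. At 1 week it was -0.63 (adjusted p = 0.026 in limma-voom). SLC25A11, the oxoglutarate and malate carrier of the malate-aspartate shuttle, measured 139, 60.5, 108 and 146 CPM after repair at 1 week against 271, 174, 209.6 and 211 CPM in controls. All repair libraries were lower, and the log2FC was -0.99 (SE 0.290, adjusted p = 0.027), with -0.51 at 2 weeks (adjusted p = 0.12, limma-voom).

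SLC25A20, which carries acylcarnitines into the matrix for fatty acid oxidation, was the 1 member that rose. At 1 week it measured 50.4, 43.8, 60.6 and 66.2 CPM after repair in rabbits 5, 6, 7 and 8 and 29.1, 31.1, 40.5 and 38.1 CPM in their controls. Every repair library exceeded every control. The log2FC was 0.67 (SE 0.172, adjusted p = 0.014 in limma-voom), and without the control of rabbit 5 it was 0.59 with an adjusted p of 0.0576. At 2 weeks it was 0.02 (95% confidence interval -0.29 to 0.32), and at 4 weeks 0.33, when all 4 repair libraries (56.2 to 70.7 CPM) again exceeded all 4 controls (44.97 to 51.4 CPM, against 5.19% of all genes higher without overlap) without a call (adjusted p = 0.33 in limma-voom). SLC25A33, a pyrimidine nucleotide carrier, had a log2FC of 0.07 at 1 week and fell at 2 weeks (-0.80, SE 0.207, adjusted p = 0.017 in limma-voom), from 14.1 ± 4.105 to 8.352 ± 2.53 CPM (SD, n = 5), with the control of rabbit 64 at 7.73 CPM, and the call was lost without the repair library of rabbit 59 (adjusted p = 0.0835). SLC25A36, of the same substrate class, was not called at any time (log2FC -0.45, -0.39, -0.32 and -0.49). SLC25A27, an uncoupling protein homologue, exceeded a CPM of 1 in 8 of 33 libraries and had log2FC of 0.05 and 0.27, neither called.

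**Figure D2:**
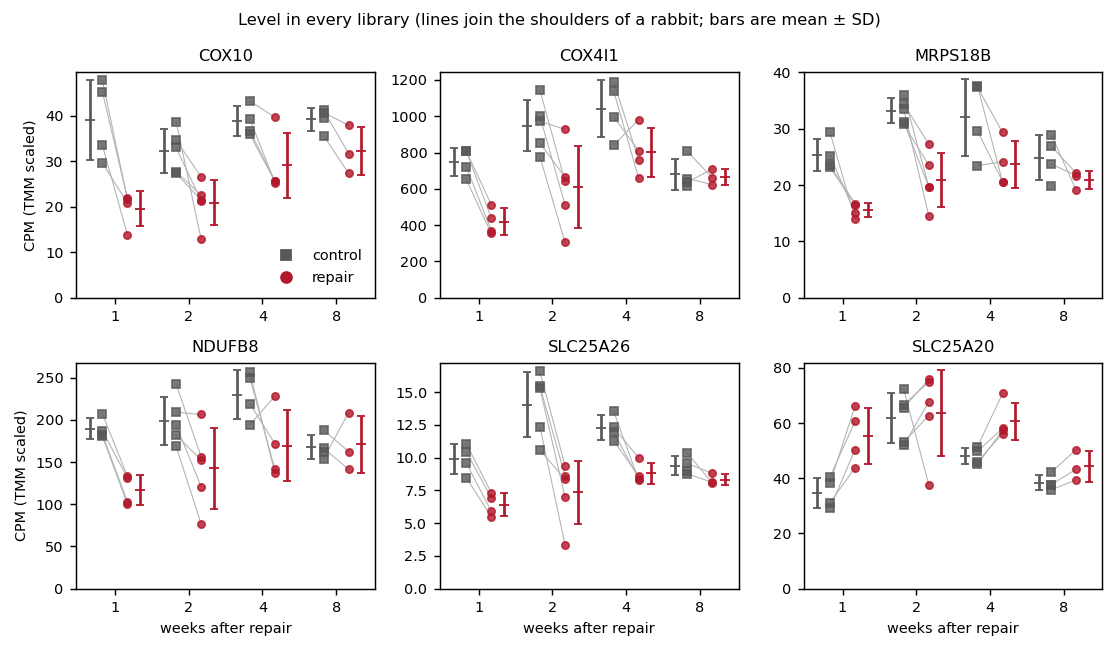
TMM-scaled CPM of 6 members in every library at 1, 2, 4 and 8 weeks post-repair, with controls as grey squares, repairs as red circles, lines joining the shoulders of a rabbit and bars giving the mean ± SD. COX10, MRPS18B and SLC25A26 lie lower after repair with no overlap at 1 and 2 weeks, COX4I1 and NDUFB8 without overlap at 1 week, and SLC25A20 lies higher at 1 and 4 weeks.

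Matched within rabbits, the repaired shoulder was lower for most members in all 4 rabbits of 1 week and all 5 of 2 weeks. The median difference over the members between left and right was -0.50, -0.35, -0.59 and -0.38 (log2 CPM) in rabbits 5, 6, 7 and 8, with 58, 58, 58 and 60 of 64 members lower. At 2 weeks the rabbits differed more. Rabbit 59 had a median of -0.98 with 60 members lower, rabbit 62 -0.62 with 60, rabbit 64 -0.44 with 60, rabbit 61 -0.25 with 52 and rabbit 60 -0.10 with 46. The median over all genes stayed between -0.02 and 0.08 in these 9 rabbits. Across the 16 rabbits with both shoulders, COX10, MRPS30 and SLC25A26 were lower in every one, against 1.52% of all genes. At least 14 rabbits were lower for 36 of 64 members, against 11.3% of all genes. SLC25A20 was lower in 1 of 16.

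**Figure D3:**
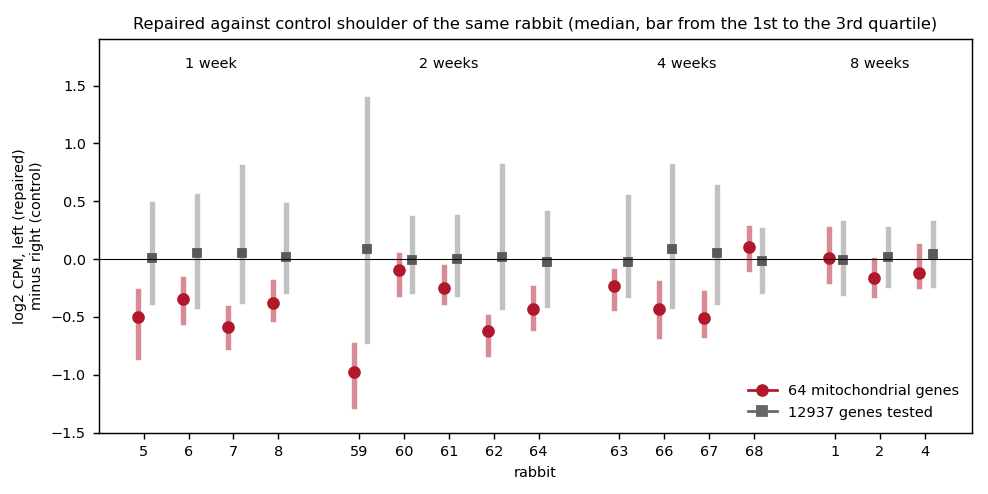
Difference in log2 CPM between the repaired left and the control right shoulder of each rabbit, by weeks post-repair. Circles are the median over the 64 members and squares the median over the 12937 genes tested, with bars from the lower to the upper quartile. The circles lie below the squares in all rabbits of 1 and 2 weeks, deepest in rabbit 59 at -0.98, and above 0 at 4 weeks in rabbit 68 alone.

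At 4 weeks the members still leaned lower but none was called. The median log2FC was -0.28 (all genes 0.05), 56 of 64 lay below 0 (45.9% of all genes), and limma-voom called 0 lower and 0 higher, against 0.0464% and 0.0773% of all genes. An unadjusted p under 0.05 was found for 12 members, all lower, edgeR called 0 and DESeq2 called 2, COX7A2 and MRPL11. Over all 12937 genes, DESeq2 called 258 lower and 408 higher. COX7A2 measured 22.5, 20.7, 20.6 and 24.7 CPM after repair in rabbits 63, 66, 67 and 68 and 29.4, 30.4, 39.1 and 30.8 CPM in controls. Its log2FC was -0.55 (SE 0.178, adjusted p = 0.15 in limma-voom, 0.037 in DESeq2). MRPL11 had a log2FC of -0.56 (adjusted p = 0.15 in limma-voom, 0.029 in DESeq2). Repair and control libraries were apart for 7 lower members, against 3.93% of all genes, among them SLC25A26, SLC25A33, TIMM21 and MRPS30. Rabbit 68 stood out, with 20 of 64 members lower and a median of 0.11, where rabbits 63, 66 and 67 had -0.23, -0.43 and -0.51.

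At 8 weeks the median log2FC was -0.06 (all genes 0.01), 44 of 64 lay below 0 (47.7% of all genes), and limma-voom called 0 members, against 0.0% of all genes lower and 0.00773% higher. An unadjusted p under 0.05 was found for 0 members, and edgeR and DESeq2 called 0. COX10, for example, measured 37.9, 27.3 and 31.7 CPM after repair in rabbits 1, 2 and 4 and 40.75, 35.65, 39.5 and 41.2 CPM in the controls of rabbits 1, 2, 3 and 4, with a log2FC of -0.29 (95% confidence interval -0.71 to 0.13). Rabbit 1 alone reached the range of the controls. The 3 rabbits had medians over the members of 0.01, -0.16 and -0.12. UQCRC1, SLC25A36 and MRPL58 were lower without overlap and MRPL40 higher, against 3.32% and 4.24% of all genes.

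The change with time was tested between time points whose libraries share a style of title, 1 with 8 weeks and 2 with 4 weeks. Between 1 and 8 weeks the effect of repair was lower at 1 week for 56 of 64 members (46.4% of all genes), with a median difference of -0.41 (-0.64 with all 34 libraries), yet 0 members were called in limma-voom, edgeR or DESeq2 (12 at an unadjusted p under 0.05, and 0.0% of all genes called). Among members with a single identifier and a CPM over 1 in all libraries, the lowest values were those of COX4I1 (-0.83, SE 0.332, adjusted p = 0.83) and COX5A (-0.83, SE 0.393, adjusted p = 0.83). Between 2 and 4 weeks the median difference was -0.25, with 60 of 64 lower at 2 weeks (50.3% of all genes), 0 called and 1 at an unadjusted p under 0.05, SLC25A26 (-0.57, adjusted p = 1.0). Without the repaired shoulder of rabbit 59 that median was -0.08 with 43 of 64 lower, and with sample quality weights it was -0.04 with 44 lower. A smaller effect at the later time was thus not called for any single member. Averaged over the 4 time points with equal weight, 44 members were lower and 1, SLC25A20, was higher, against 17.7% and 22.4% of all genes. MRPS18B (mean effect -0.52, SE 0.0805, adjusted p = 6.0e-05), COX10 (-0.60, SE 0.0959, adjusted p = 7.9e-05) and SLC25A26 (-0.58, SE 0.0975, adjusted p = 0.00012) had the smallest adjusted p in limma-voom. In this average 13 of 16 MRPL members, 7 of 11 MRPS members, 5 of 7 of complex I, 4 of 5 of complex IV and 3 of 5 of ATP synthase were lower.

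Other mitochondrial genes with a symbol moved alike in direction. Of 28 such genes in 5 lists, 27 had a negative log2FC at 1 week and at 2 weeks, 5 and 8 fell, and the median was -0.50 and -0.46. In fatty acid oxidation, ETFA, which passes electrons from acyl-CoA dehydrogenases onward, fell at both times (log2FC -0.71 and -0.61, adjusted p = 0.034 and 0.029 in limma-voom), and ETFDH and ACAA2 fell at 2 weeks, giving 1 and 3 of 6. In the TCA cycle, DLD, the lipoamide dehydrogenase of the oxoglutarate and pyruvate complexes, fell at 1 week (-0.93, adjusted p = 0.0259 in limma-voom), 1 of 3, and at 2 weeks 0 were called (2 at an unadjusted p under 0.05, edgeR 0, DESeq2 0, and DLD alone with the rabbit as a block, adjusted p = 0.0403). Of 5 genes of mitochondrial dynamics and quality control, MFN1, a fusion GTPase, fell by 0.90 and 0.68 and BNIP3, a mitophagy receptor, by 0.88 and 0.91 on the log2 scale, and DNM1L, the fission GTPase, fell at 1 week. Among 9 tRNA ligases and elongation factors of the organelle, 0 fell at 1 week (5 at an unadjusted p under 0.05, edgeR 0, DESeq2 2, block 4) and 2 at 2 weeks, YARS2 and TUFM (block 3). Among 5 genes of mitochondrial DNA maintenance and biogenesis, 0 fell at 1 week (2 at an unadjusted p under 0.05, edgeR 0, DESeq2 0) and 1, TEFM, at 2 weeks. With the rabbit as a block TEFM was not called (adjusted p = 0.0503), while 1 of the 2 genes with the symbol SSBP1, the mitochondrial single-stranded DNA binding protein, was called lower at 1 and 2 weeks (adjusted p = 0.0412 and 0.0351). The block gave 11 of the 28 genes lower at each of these times.

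Proteins of the cytosolic ribosome serve translation outside the mitochondrion. Of their 14 genes at hand, limma-voom called 0 at 1 week and 0 at 2 weeks, 0 had an unadjusted p under 0.05, edgeR and DESeq2 each called 0 at 1 week and 1 higher at 2 weeks, and the medians were -0.02 and -0.13. At 4 weeks their median was -0.26 with 11 of 14 below 0, beside -0.28 for the members, and limma-voom called 0 (2 lower at an unadjusted p under 0.05, edgeR 0, DESeq2 1 higher, 1 lower with the rabbit as a block). Several of them, among them RPS6, RPS18 and RPL5, have large errors, and the difference from the mitoribosome was not tested.

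Markers of the cells in the tissue also changed, fibre genes mostly downward and those of adipocytes and fibroblasts upward. The lists named 36 fibre, 20 adipocyte, 21 fibroblast, 16 macrophage and 12 endothelial symbols, and only genes with a symbol at hand are counted. The 8 markers of muscle fibres were detected in every library, summing to between 10974 and 58892 CPM after repair and 55441 and 70418 CPM in controls at 1 week, with none at 0 in any library of 1, 2 or 4 weeks. Of these 8, LDB3 and MYOM2 fell at 1 week and DES, LDB3 and TCAP at 2 weeks, with list medians of -1.09 and -0.54. The log2FC lay below 0 for 7 of the 8 at 1 week, with DES at 0.005, and for all 8 at 2 weeks. Of 5 adipocyte genes, 4 rose at 1 week, 3 at 2 weeks and 2 at 4 weeks, with medians of 1.76, 1.43 and 1.78, respectively, and none at 0. All 14 fibroblast and matrix genes had positive log2FC at 1 and 2 weeks, with medians of 1.59 and 1.63. At 1 week limma-voom called 1 of them higher, against 7 with the rabbit as a block, 5 in edgeR and 8 in DESeq2. At 2 weeks it called 7, against 8, 14 and 14. Over all 12937 genes, limma-voom, the block, edgeR and DESeq2 called 881, 1913, 787 and 1084 higher at 1 week. At 2 weeks they called 1029, 2480, 2586 and 2684 higher. Of 6 macrophage genes, limma-voom called 0 at 1 and 2 weeks (0 and 1 at an unadjusted p under 0.05), and edgeR and DESeq2 called 0 and 6 higher. The rabbit as a block called 0 and 5 higher. All 6 had positive log2FC at both times, with medians of 1.095 and 2.052. Their sum ranged from 6.36 to 438 CPM in the repair libraries of 2 weeks against 8.89 to 14.9 CPM in controls. Of 5 endothelial genes, 0 and 2 rose (0 at an unadjusted p under 0.05 at 1 week, edgeR and DESeq2 0). At 2 weeks the block called 4 of them higher, and edgeR and DESeq2 called 3 each. Of 13 genes listed for the nerve junction and denervation, only 2 had a symbol at hand, GADD45A and MYH8, too few to read that list. Both rose at 1 week (log2FC 2.08 and 2.97). At 2 weeks limma-voom called neither (0.69 and -0.12), and the rabbit as a block called GADD45A (adjusted p = 0.0268).

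Within rabbits these lists and the members did not keep a fixed ratio. In rabbit 6 the fibre markers had a median of -2.52 and the members -0.35, in rabbit 5 -0.39 and -0.50, and in rabbit 61 -0.06 and -0.25. The values lay closer in rabbit 8 (-0.39 and -0.38) and rabbit 64 (-0.35 and -0.44), and both were lower in rabbit 7 (-1.10 and -0.59). Rabbit 59, with the lowest members, had medians of -1.49 for fibre, 2.475 for adipocyte, 4.405 for fibroblast and 5.03 for macrophage genes, and rabbit 62 -1.06, 2.54, 3.335 and 3.68. Rabbit 60, with the smallest change of that week, had 0.25, 0.58, 0.43 and 0.99. The part of these cell types in the falls of the members was not tested.

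**Figure D4:**
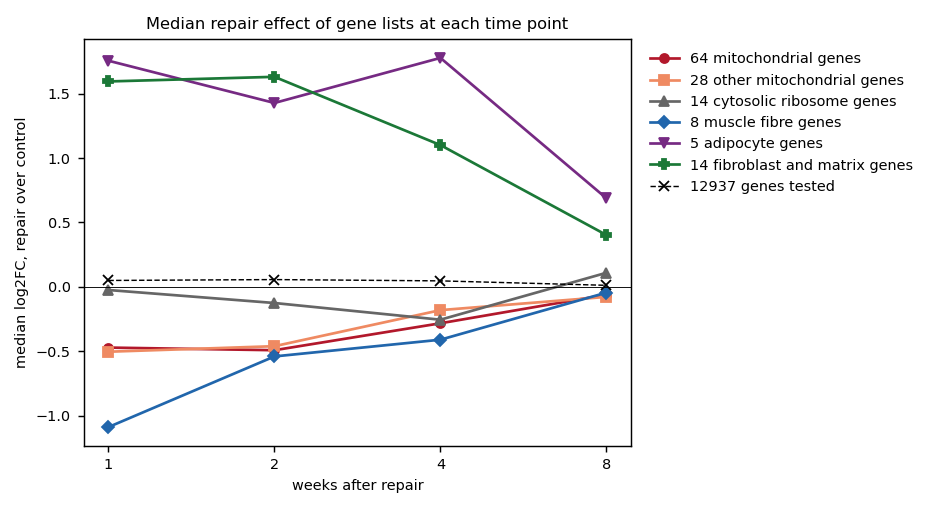
Median log2FC of repair over control for 7 sets of genes at 1, 2, 4 and 8 weeks post-repair, drawn at even steps. The 64 members and 28 other mitochondrial genes run together near -0.5 at 1 and 2 weeks, the cytosolic ribosomal genes and all genes tested stay nearer 0 at those times, muscle fibre genes start at -1.09, and adipocyte and fibroblast genes lie above 0 throughout.

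How many members passed depended on the libraries and on the matching of shoulders. With the rabbit as a fixed block, 32 fell and 2 rose (SLC25A20 and TOMM34) at 1 week and 42 fell at 2 weeks, and with an estimated correlation between the shoulders 31 and 37 fell. Over all 12937 genes, the block gave 1493 lower and 1913 higher at 1 week. The correlation gave 1429 and 1573 of them lower at 1 and 2 weeks. At 1 week the count of falls was 4 without the control of rabbit 5, 4 without that of rabbit 7, 12 without that of rabbit 8, 7 without the repair library of rabbit 6 and 6 without that of rabbit 7. Over all genes the falls were 311 of 12932, 326 of 12937, 506 of 12935, 377 of 12896 and 312 of 12917, respectively. The count of members was 36 without the repair library of rabbit 59, although that animal belongs to 2 weeks. Over all genes 1649 of 12514 were then lower at 1 week. At 2 weeks the count of members was 4 without the repair library of rabbit 59 and 9 without that of rabbit 62. It was 11 without the control of rabbit 60, 62 or 64, and 44 or 37 without the repair library of rabbit 60 or 64. Over all genes 1024 of 12937 were lower at 2 weeks in the fit of 33 libraries and 1608 of 12937 with the block. The same count was 177 of 12514 without the repair library of rabbit 59 and 1574 of 12937 without that of rabbit 60. It was 421 of 12925 without that of rabbit 62 and 1476 of 12935 without that of rabbit 64. Without the control of rabbit 60, 62 or 64 it was 500, 565 or 531 of 12936. COX10, MRPS18B and MRPS5 were called at 1 week, and COX7A2, MRPS18B, MRPS30 and SLC25A26 at 2 weeks, with each library of that week left out in turn. The median log2FC moved less, from -0.54 to -0.40 at 1 week and from -0.61 to -0.30 at 2 weeks over the 33 fits, with at least 56 and 59 members below 0.

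The library left out, the repaired shoulder of rabbit 3 at 8 weeks, held 8756033 counts. Against its own control the median over the members was 0.935 with 16 of 64 lower, while all genes had a median of -0.225, and 6 members lay under a CPM of 1. With it among 34 libraries, 1 member fell at 1 week, 5 fell at 2 weeks and 21 in the average over the time points. Over all 13041 genes tested in that fit, 100, 139 and 1437 were lower, respectively. At 8 weeks of the same fit, 21 of 64 members lay below 0 with a median of 0.17.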

How the data were processed

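The authors aligned 75 bp single reads with STAR 2.5.1a to OryCun2.0 (annotation release 91) and deposited expected counts per gene (estimated counts from RSEM 1.3.0). Here, genes with a CPM over 1 in at least 1 library were kept. TMM factors came from edgeR 4.0.16, and the voom model of limma 3.58.1 (under R 4.3.3) was run over 8 groups (repair or control by week) in 33 libraries, with Benjamini-Hochberg adjustment over all 12937 genes. DESeq2 1.42.0 and the edgeR quasi-likelihood test on rounded counts, other filters and scalings, sample weights, each library left out in turn, and the rabbit as a block or with an estimated correlation (consensus 0.174) were alternatives. Each rabbit gave both shoulders. Same-rabbit residuals correlated at 0.0351 to 0.371 (median 0.216), and a repair library was closest to its own control in 15 of 16 rabbits. Code was tested on simulated data. Figures and summaries used Python 3.11.15, NumPy 2.4.6, pandas 2.3.3 and matplotlib 3.10.9.

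Members and lists were chosen with earlier results of these data known. Symbols of human orthologs came from the study's supplementary tables, which were shortened here, and their fold changes, p-values and module values were not used. Members named with values were the 10 called with the smallest adjusted p and the 3 lowest and 3 highest by log2FC at 1 and 2 weeks, the member of each role with the highest mean log2 CPM, members called later, and members of roles with 1 or 2 members. COX20, ATP5F1E, ATP5MD, ATP5IF1, NDUFB4, NDUFAB1, NDUFS4, NDUFS5, NDUFAF7, MRPL48, TIMM10, SLC25A36, MRPL40, MRPL58 and genes named only in lists of calls were added after values were seen. Time codes in the labels were read as weeks of tenotomy and weeks of repair. Whether the p-values cover more than the spread between rabbits was not tested.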

Additional observations from a re-analysis of the deposited data

Results flagged for a closer look

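Within groups of 4 or 5 libraries, 14 of 213 tests of the highest or lowest library against Dixon's critical value were passed, where chance passes about 1 in 20 groups. The count is thus not far from that rate, and flags on the same library are not independent. In the repair group of 4 weeks, rabbit 68 stood far above the others for COX10 (39.7 CPM, others 25.3 to 25.8), MRPS9 (99.1 CPM, others 64.1 to 64.95), MRPL37 (90.3 CPM, others 69.0 to 70.3), MTIF2 (37.7 CPM, others 28.2 to 29.4) and COQ2 (21.5 CPM, others 14.7 to 15.5). That rabbit had a median fibre marker difference of 0.56, and the part of this in its values was not tested. SLC25A20 was high in the repair library of rabbit 63 at 4 weeks (70.7 CPM, others 56.2 to 58.1). COX10 was low in the repair library of rabbit 6 at 1 week (13.8 CPM, others 20.8 to 21.9) and NDUFAF4 in that of rabbit 59 at 2 weeks (2.035 CPM, others 3.55 to 3.81). Among controls, COX7A2 was high in rabbit 67 at 4 weeks (39.1 CPM, others 29.4 to 30.8), and COQ7 (27.7 CPM, others 22.4 to 23.0) and UQCRC1 (594.3 CPM, others 436.8 to 447.4) in rabbit 2 at 8 weeks. MRPL32, near the detection limit, stood out in the repair (1.35 CPM) and control (2.17 CPM) libraries of rabbit 8 at 1 week and in the control of rabbit 63 at 4 weeks (2.03 CPM), where the others lay at or near 0.

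The repair library of rabbit 3 at 8 weeks, used only in the fits with all 34 libraries, had a median difference over the members of 0.935 (log2 CPM) from its own control.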

How the results depend on the processing

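The counts of members called moved by over 1.5 times in 16 of 107 results under other settings and in 16 of 363 with 1 library left out. No named member reversed its direction where it was called, and named members lost the call in 39 of 270 and 73 of 891 such fits. The 363 and 891 join 11 and 27 results with each of 33 libraries, also those of other time points. Some of the 11 results were 0 in every fit with 1 library left out. These shares therefore say little about the libraries of a result's own week. With each library of the week left out in turn, 3 of 21 falls held at 1 week and 4 of 23 at 2 weeks. With all 34 libraries, 1 fell and 0 rose at 1 week, 5 fell at 2 weeks and 22 were called for the average over the 4 time points. Over all 13041 genes of that fit, 100 fell and 194 rose at 1 week and 139 fell at 2 weeks. Under the replicate block, with the rabbit as a fixed block, 32 fell and 2 rose at 1 week and 42 fell at 2 weeks. Over all 12937 genes, the block gave 1493 lower and 1913 higher at 1 week and 1608 lower at 2 weeks. With an estimated correlation 2 members rose at 1 week and 37 fell at 2 weeks, against 1463 and 1573 of all genes. With sample quality weights 38 fell and 2 rose at 1 week, 10 fell at 2 weeks and 6 at 4 weeks. The falls over all 12937 genes were 1749, 392 and 415, respectively. With the libraries of a time point alone, 32 fell at 1 week and 0 at 2 weeks, against 1445 of 12102 and 1 of 12630 genes. DESeq2 gave 2 falls at 4 weeks, against 258 of all 12937 genes. For none of these settings was the cause tested. With each of the 33 libraries left out, falls ranged from 4 to 36 and rises from 0 to 2 at 1 week, falls from 4 to 44 and rises from 0 to 0 at 2 weeks, falls from 0 to 2 at 4 weeks, and calls for the average from 39 to 50. At 8 weeks and for both differences between time points 0 were called in each of these fits. In simulated libraries of these sizes and depths, with shoulders drawn independently, limma-voom recovered 52 of 100 2-fold and 87 of 100 4-fold changes at 1 week. At 2 weeks it recovered 51 and 88, so even 2-fold changes can be missed. Changes as small as the median of the members were not simulated.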
